A study of Mus musculus with 8 samples.

Results

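The genes described here mark Langerhans cells, the dendritic cells of the epidermis, or belong to the MHC class II pathway by which such cells present antigen. They are *H2-Aa*, *H2-Ab1*, *H2-Eb1*, *Cd74*, *Cd207*, *Ciita*, *Cd52*, *Epcam*, *Mfge8* and *Cd86*, chosen by symbol from the mouse GENCODE annotation. All 10 were found among the 55416 genes of the count table, and all 10 passed the filter on low counts that left 13147 genes for testing. RNA was sequenced from the epidermis of postnatal day 4 mice, in 4 control libraries labelled WT (A1, B1, C1 and C6) together with 4 RoraEKO libraries labelled MT (A3, B4, C2 and C3). RoraEKO mice were bred from Rora flox/flox mice and mice with K14-Cre, so that the deletion was directed to keratin 14 expressing keratinocytes, and the labels do not say whether the controls, littermates in the study's account, carried Cre or floxed alleles. The epidermis was peeled from heat-treated back skin, and each library is a mixture of keratinocytes with the immune cells and melanocytes that live among them. In such a bulk sample, fewer cells of a type and less RNA per cell cannot be told apart.

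A class II molecule is a dimer of an α and a β chain that shows peptides from ingested proteins to CD4 T cells. The invariant chain, CD74, guards the groove of the dimer until it reaches the endosome, where H2-DM helps to load the peptide, and the coactivator CIITA switches these genes on through a complex that sits on conserved X and Y boxes in their promoters. Langerhans cell precursors enter mouse epidermis before birth and gain class II and langerin, the product of *Cd207*, in the days after it. They descend from blood-forming precursors and not from keratinocytes.

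Promoters of class II genes are shown because their X and Y boxes bind the factors that recruit CIITA. The table of RefSeq promoters (build GRCm38.p6, 250 bases before to 50 bases after each start site) had entries for 5 of the 10 genes, namely *H2-Aa*, *H2-Eb1*, *Cd207*, *Epcam* and *Mfge8*. The 130 bases before the start are printed 5′ to 3′ on each gene's own strand for *H2-Aa* (chr17:34287824-34287953, minus strand), *H2-Eb1* (chr17:34305737-34305866, plus strand) and *H2-DMb1* (chr17:34153061-34153190, plus strand), a peptide loading gene shown for comparison. Capitals mark the Y box letters TGATTGG and GCAAC, letters of the X box.
H2-Aa: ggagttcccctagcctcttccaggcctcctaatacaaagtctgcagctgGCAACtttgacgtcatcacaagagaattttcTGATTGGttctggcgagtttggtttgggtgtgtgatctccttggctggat
H2-Eb1: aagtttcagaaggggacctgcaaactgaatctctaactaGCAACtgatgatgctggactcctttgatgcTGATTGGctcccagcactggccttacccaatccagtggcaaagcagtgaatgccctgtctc
H2-DMb1: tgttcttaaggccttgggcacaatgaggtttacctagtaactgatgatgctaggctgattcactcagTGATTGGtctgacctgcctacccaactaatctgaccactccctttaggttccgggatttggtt
In these 3 promoters the Y box letters began 50, 61 and 63 bases before the start. TGATTGG, searched on both strands, was present in 2 of the 5 members with an entry (*H2-Aa* and *H2-Eb1*), in 10 of the 28 promoters that the table holds for the class II pathway list, some genes having several, and in 7.82% of all 32851 promoters of the table. GCAAC was found in the same 2 members, in 12 of those 28 promoters and in 35.2% of all promoters. The letters AGGTCA, the core of the element that ROR receptors bind, were found in 1 member, *H2-Eb1*, in 4 of the 28 promoters and in 16.3% of all promoters. *H2-DMb1* held TGATTGG but not GCAAC. The 3 motifs share no overlap in the printed stretches. A match describes letters in a window and does not show that a factor binds there.

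Library totals ran from 17286903 to 26705533 counts. Levels are given as counts per 1000000 counts (CPM) after TMM scaling, and 3 counts, the limit that a count of 0 allows, came to 0.113 to 0.196 CPM depending on the library, for counting error only. A gene was called where the fold change was at least 1.5 and the adjusted p at most 0.05 (edgeR quasi-likelihood test, Benjamini-Hochberg adjustment over 13147 genes). *Rora* itself did not separate the genotypes, at 212 ± 66.6 CPM in control and 196 ± 34.6 CPM in RoraEKO (SD, n = 4 per genotype, adjusted p = 0.877, edgeR quasi-likelihood test), so genotype was taken from the labels alone. A count over the whole gene does not show whether a part of it was deleted, so this value does not test the knockout. The study reports lower *Arntl*, *Npas2* and *Nr1d1* in RoraEKO epidermis, with RT-PCR for *Arntl* and *Nr1d1*. The study counts its replicates as mice, but the labels do not tie libraries to animals, so the tests are taken to measure the spread between these libraries. Control replicate C1 stood apart from the other 7 in most of the genes described here, and the fold changes of the 10 genes and the summaries of the class II and Langerhans cell lists are also given without it. C1 was also 1 of the 2 libraries, with control C6, that expressed *Xist*, the RNA of the inactive X chromosome. Both are controls, so the *Xist* difference is partly confounded with genotype. The fits without the libraries with *Xist* set only controls A1 and B1 against the 4 RoraEKO libraries. The part of the *Xist* difference in the results was not tested beyond the alternatives with and without these libraries.

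None of the 10 genes passed the cutoffs for RoraEKO against control, where 5.51% of all genes tested did, 2.3% higher and 3.22% lower. Of the 10, 7 had a log2 fold change below 0 and 3 above it, with a median of -0.44 beside -0.04 over all genes tested. Without control C1, 4 were below 0 and 6 above, and the median was 0.0033, so the lean below 0 rested on that library. The genotypes overlapped in every one of the 10, whereas 12.9% of all genes tested had genotypes that did not overlap. At an unadjusted p under 0.05 the count was also 0, beside 2390 of 13147 genes tested, and 0 passed under each of the 19 alternative fits, of which *Cd207* and *Ciita* were tested in 18 and *Cd86* in 16. Their lowest adjusted p in any fit was that of *Cd86*, at 0.193 (range over its alternatives 0.193 to 0.916). Intervals were wide, so that a miss of the cutoffs does not show equal levels. The 95% confidence interval of the log2 fold change (limma, an analysis added after seeing the data) was narrowest for *Epcam*, from -0.28 to 0.67, and widest for *Cd86*, from -0.88 to 2.48.

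**Figure D1:**
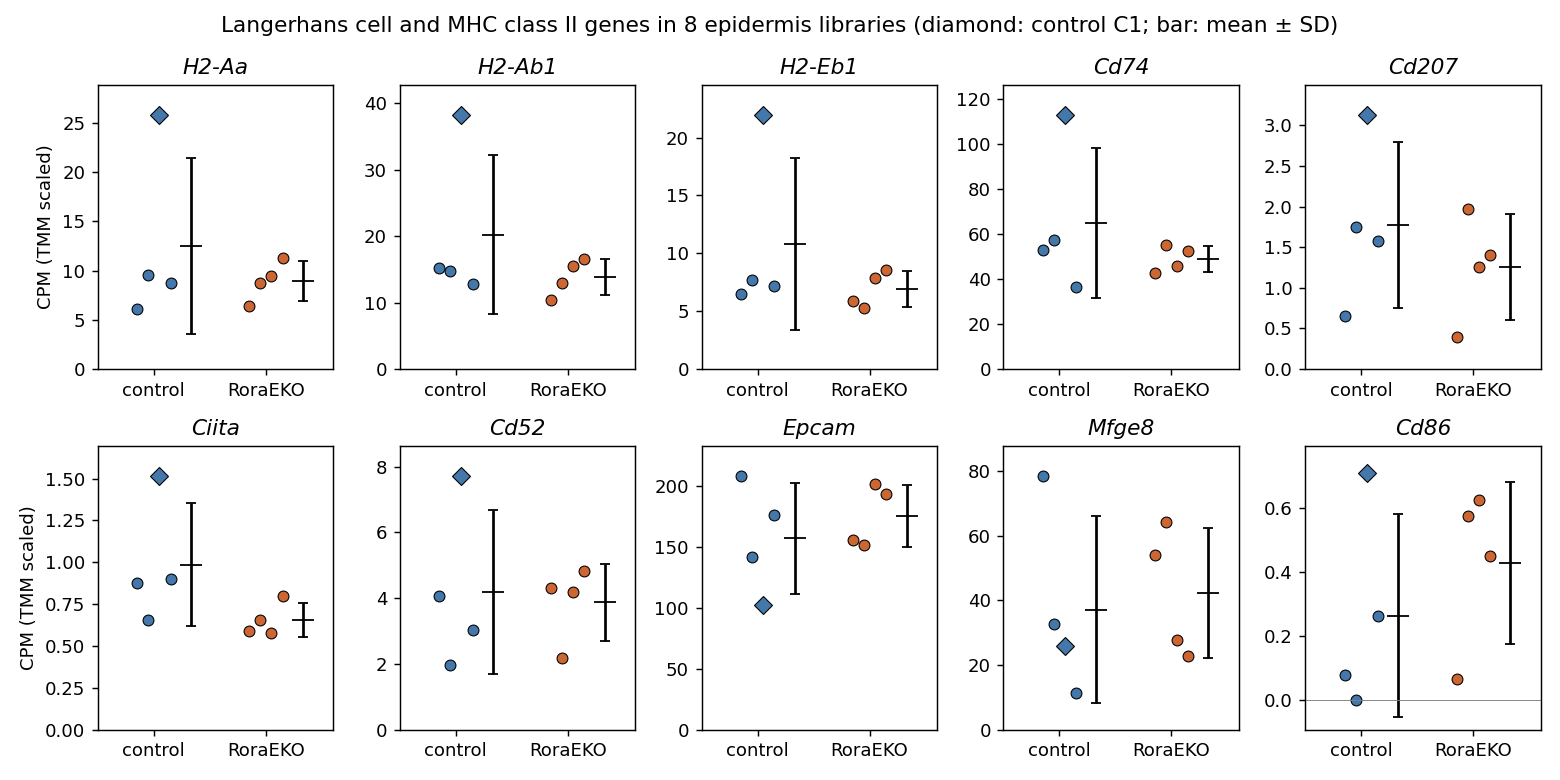
Level of each of the 10 genes in each library, in CPM on a linear axis, with controls in blue, RoraEKO in orange, control C1 as a diamond, and the mean ± SD of the 4 libraries of a genotype beside the points. C1 is the highest library in 8 of the 10 panels and the lowest for *Epcam*, and the genotypes overlap in every panel.

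Of the class II chains, *H2-Ab1* encodes the β chain of I-A (ENSMUSG00000073421, chromosome 17, 34476663 to 34488393, plus strand, GRCm39). Its level was 15.2, 14.7, 38.2 and 12.8 CPM in control A1, B1, C1 and C6, and 10.4, 12.9, 15.5 and 16.5 CPM in RoraEKO A3, B4, C2 and C3. Apart from C1, the 7 libraries lay within 1.58-fold of each other with the genotypes interleaved, folds between libraries being taken from log2 CPM with a prior count of 2. The means were 20.2 ± 12.02 and 13.8 ± 2.73 CPM (SD, n = 4 per genotype), and the log2 fold change was -0.55 (SE 0.388, adjusted p = 0.470, edgeR quasi-likelihood test). Without C1 it was -0.04.

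*H2-Aa*, the α chain of I-A (ENSMUSG00000036594, chromosome 17, 34493404 to 34506798, minus strand), was at 6.05, 9.51, 25.8 and 8.78 CPM in control A1, B1, C1 and C6, and at 6.40, 8.71, 9.49 and 11.3 CPM in RoraEKO A3, B4, C2 and C3. The lowest library of each genotype was the replicate with the title letter A, and C1 was 2.28-fold above the next library. The means were 12.5 ± 8.97 and 8.97 ± 2.03 CPM (SD, n = 4 per genotype), with a log2 fold change of -0.48 (SE 0.475; edgeR quasi-likelihood test, adjusted p = 0.635). Without C1 the sign turned, to a log2 fold change of 0.15 (adjusted p = 0.847).

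*H2-Eb1*, the β chain of I-E (ENSMUSG00000060586, chromosome 17, 34504236 to 34535648, plus strand), was at 6.47, 7.71, 21.9 and 7.13 CPM in control A1, B1, C1 and C6 and at 5.87, 5.30, 7.85 and 8.54 CPM in RoraEKO A3, B4, C2 and C3. The 3 other controls lay inside the range of the RoraEKO libraries. Means were 10.8 ± 7.43 and 6.89 ± 1.55 CPM (SD, n = 4 per genotype), with a log2 fold change of -0.65 (SE 0.439; edgeR quasi-likelihood test, adjusted p = 0.453), and without C1 the log2 fold change was -0.04. *H2-Aa* and *H2-Eb1* lie on opposite strands and share 118 exon bases in the annotation. The library kit keeps strand but the strand setting of the authors' counting is not given in the sources used here, so reads of the shared bases may not be told apart.

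*Cd74* (ENSMUSG00000024610, chromosome 18, 60936899 to 60945731, plus strand) encodes the invariant chain. It was at 52.9, 57.5, 112.8 and 36.4 CPM in control A1, B1, C1 and C6, and at 42.6, 55.1, 45.9 and 52.6 CPM in RoraEKO A3, B4, C2 and C3. C1 was 1.96-fold above the next library and control C6 was the lowest of the 8, so the controls held both ends of the range. The means were 64.9 ± 33.2 and 49.0 ± 5.79 CPM (SD, n = 4 per genotype), with a log2 fold change of -0.40 (SE 0.35; edgeR quasi-likelihood test, adjusted p = 0.563). Without C1 the log2 fold change was 0.0042.

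*Ciita* (ENSMUSG00000022504, chromosome 16, 10297923 to 10347694, plus strand), the coactivator on which class II transcription depends, was low in every library. Its counts were 23, 12, 32 and 24 in control A1, B1, C1 and C6, and 9, 16, 12 and 16 in RoraEKO A3, B4, C2 and C3. In CPM the control libraries ran from 0.656 to 1.52 and the RoraEKO libraries from 0.578 to 0.799. Only control B1 fell inside the RoraEKO range. The means were 0.987 ± 0.369 and 0.655 ± 0.102 CPM (SD, n = 4 per genotype), with a log2 fold change of -0.58 (SE 0.249; edgeR quasi-likelihood test, adjusted p = 0.425), and the log2 fold change without C1 was -0.31. *Ciita* shares 633 exon bases with *Dexi* on the opposite strand. *Dexi* fell from 66.9 ± 4.38 to 23.3 ± 1.28 CPM (SD, n = 4 per genotype), with a log2 fold change of -1.52 (edgeR quasi-likelihood test, adjusted p = 8.7e-05). Because the strand setting of the counting is not given, the part of *Dexi* reads in the *Ciita* counts was not tested.

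*Cd207* encodes langerin, the lectin of the Birbeck granule and the marker that defines Langerhans cells (ENSMUSG00000034783, chromosome 6, 83648190 to 83654839, minus strand). Its counts were 17, 32, 66 and 42 in control A1, B1, C1 and C6, and 6, 48, 26 and 28 in RoraEKO A3, B4, C2 and C3. These corresponded to 0.647, 1.75, 3.12 and 1.58 CPM in the controls and 0.392, 1.97, 1.25 and 1.40 CPM in RoraEKO. The lowest library of each genotype was again that with the letter A, and the genotypes interleaved. With means of 1.77 ± 1.02 and 1.25 ± 0.653 CPM (SD, n = 4 per genotype), the log2 fold change was -0.47 (SE 0.629, adjusted p = 0.735, edgeR quasi-likelihood test), and without C1 it was -0.05.

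*Cd86* (ENSMUSG00000022901, chromosome 16, 36424044 to 36486443, minus strand), a costimulatory ligand of CD28 that rises when dendritic cells mature, had the fewest counts of the 10. Its counts were 2, 0, 15 and 7 in control A1, B1, C1 and C6, and 1, 14, 13 and 9 in RoraEKO A3, B4, C2 and C3. The count of 0 in B1 allows up to 0.164 CPM. At 0.262 ± 0.318 against 0.429 ± 0.254 CPM (SD, n = 4 per genotype) the log2 fold change was 0.74 (SE 0.846, adjusted p = 0.749, edgeR quasi-likelihood test), and without C1 it was 1.81 (adjusted p = 0.383). With *Xist* as a covariate it was 3.12 (adjusted p = 0.193), and without the libraries with *Xist* 3.22 (adjusted p = 0.218, edgeR quasi-likelihood test). The latter fit rests on controls A1 and B1, with 2 and 0 counts. The log2 fold change was lower without control B1, at 0.37, and without control A1, at 0.42.

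*Epcam* (ENSMUSG00000045394, chromosome 17, 87943407 to 87958557, plus strand) encodes an adhesion molecule that Langerhans cells carry and that follicular keratinocytes also make. It was at 208.1, 141.8, 102.4 and 176.1 CPM in control A1, B1, C1 and C6 and at 155.9, 151.7, 201.4 and 193.4 CPM in RoraEKO A3, B4, C2 and C3. C1, the highest library for the class II genes and *Cd207*, was the lowest here. The means were 157 ± 45.4 and 176 ± 25.4 CPM (SD, n = 4 per genotype), with a log2 fold change of 0.16 (SE 0.244; edgeR quasi-likelihood test, adjusted p = 0.790). Without C1 the log2 fold change was 0.0025.

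*Mfge8* (ENSMUSG00000030605, chromosome 7, 78783515 to 78798825, minus strand) encodes a secreted bridge between dying cells and the integrins of phagocytes. It was at 78.5, 32.8, 26.0 and 11.3 CPM in control A1, B1, C1 and C6 and at 54.2, 64.4, 27.9 and 22.7 CPM in RoraEKO A3, B4, C2 and C3. In both genotypes the libraries with the letters A and B were above those with the letter C. The means were 37.2 ± 29.0 and 42.3 ± 20.2 CPM (SD, n = 4 per genotype), with a log2 fold change of 0.19 (SE 0.678; edgeR quasi-likelihood test, adjusted p = 0.921). The sign turned without RoraEKO B4, to -0.09, and without control C6, to -0.08, and without C1 the log2 fold change was 0.05.

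*Cd52* (ENSMUSG00000000682, chromosome 4, 133809759 to 133822401, minus strand) encodes a small surface glycoprotein of lymphocytes and myeloid cells. It was at 4.07, 1.97, 7.72 and 3.04 CPM in control A1, B1, C1 and C6 and at 4.31, 2.18, 4.19 and 4.84 CPM in RoraEKO A3, B4, C2 and C3. The lowest library of each genotype had the letter B. The means were 4.199 ± 2.497 and 3.88 ± 1.17 CPM (SD, n = 4 per genotype), with a log2 fold change of -0.12 (SE 0.477; edgeR quasi-likelihood test, adjusted p = 0.936). The sign turned without C1, to 0.35, and without RoraEKO B4, to 0.08. *Cd52* shares 172 exon bases with *Crybg2* on the opposite strand, which was at 99.4 ± 11.7 CPM in control and 130.7 ± 16.7 CPM in RoraEKO (SD, n = 4 per genotype). *Mfge8* shares 420 exon bases with *Gm73905*, a gene outside the count table, and *Cd74* shares 88 with *Mir5107*, which had 0 counts in every library.

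**Figure D2:**
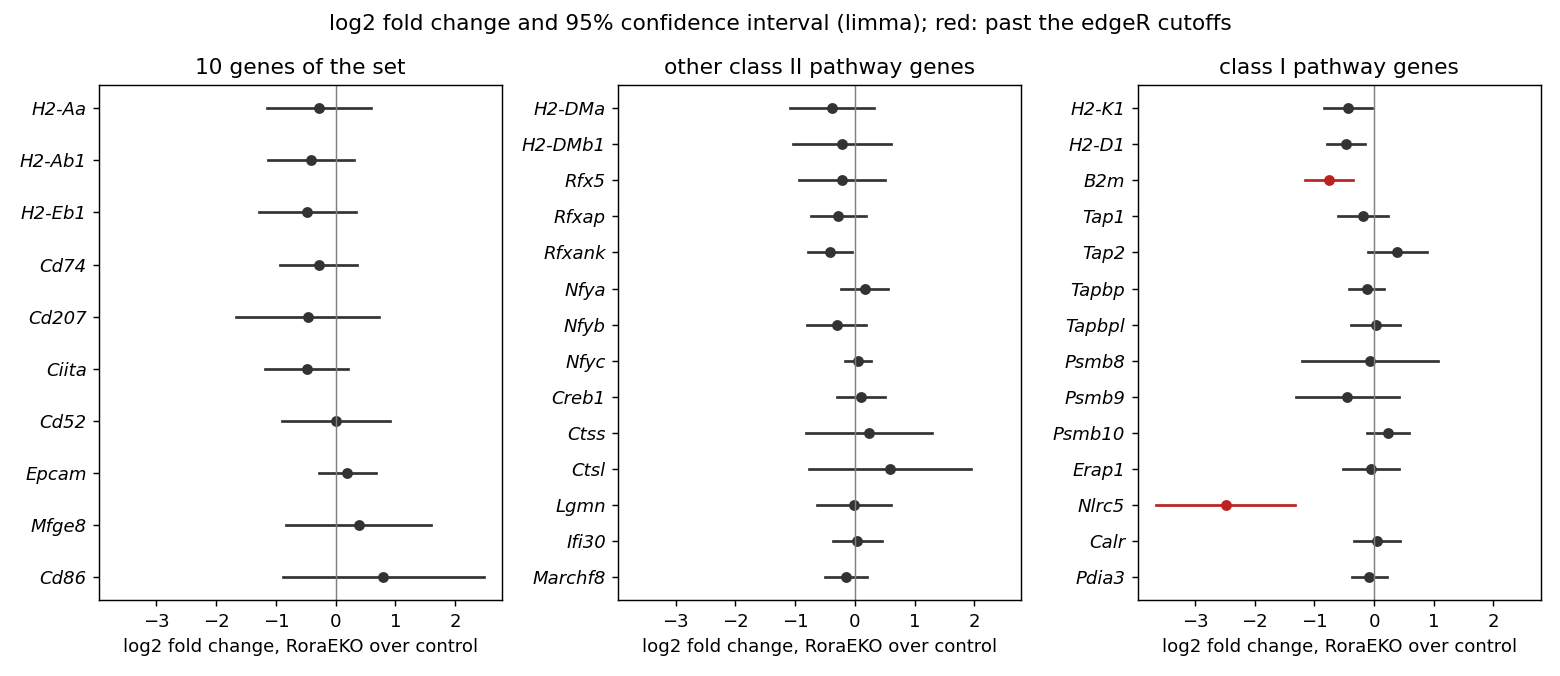
log2 fold change of RoraEKO over control with its 95% confidence interval from limma, for the 10 genes, the 14 other class II pathway genes tested and the 14 class I pathway genes tested. All intervals of the 10 genes cross 0, and the genes in red, *B2m* and *Nlrc5*, passed the edgeR cutoffs.

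The 10 genes were ordered by their level per kilobase of annotated exon, as the mean over the 8 libraries. *Epcam* was at 64.3 CPM per kilobase, followed by *Cd74* at 22.6, *Mfge8* at 8.34, *H2-Ab1* at 6.63, *H2-Eb1* at 3.41, *Cd52* at 3.38, *H2-Aa* at 2.505 and *Cd207* at 0.990. *Cd86* and *Ciita* came last at 0.0898 and 0.0744 CPM per kilobase. *Cd74* was above *Mfge8*, *H2-Ab1* above *H2-Eb1*, *H2-Aa* above *Cd207* and *Cd207* above *Cd86* in 8 of 8 libraries each. *Epcam* was above *Cd74* in 7 of 8, the exception being C1, where *Cd74* reached 44.9 and *Epcam* 39.6 CPM per kilobase. *Cd52* was above *H2-Aa* in 6 of 8. *Mfge8* was above *H2-Ab1*, *H2-Eb1* above *Cd52* and *Cd86* above *Ciita* in 4 of 8 libraries each, so these neighbours did not differ beyond the spread between libraries.

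The departure of control C1 was traced gene by gene. C1 was the highest of the 8 libraries in 8 of the 10 genes, all but *Epcam* and *Mfge8*, whereas it was the highest in 12.5% of all genes tested (1639 of 13147). The mean log2 CPM of 4 class II genes, *H2-Aa*, *H2-Ab1*, *H2-Eb1* and *Cd74*, was 5.31 in C1 and between 3.52 and 4.10 in the other 7 libraries, so C1 was 2.31-fold above the next and the rest lay within 1.49-fold. The difference in this mean between genotypes was -0.36 on the log2 scale with C1 and 0.01 without it. Within libraries of the same title letter, RoraEKO minus control was -0.23 for A, -0.23 for B and -0.50 for C, with 1 library of each genotype for A and B and 2 of each for C. Without C1 the value for C was 0.29. What the letters stand for is not stated.

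Peptide loading genes and several leukocyte genes were also highest in C1. Of the class II pathway list, C1 was the highest library in 10 of 19 genes tested, 5 of them among the 10 genes above. From log2 CPM with a prior count of 2, *H2-DMa* was 1.88-fold and *H2-DMb1* 2.44-fold above the next library. Of the Langerhans cell list, C1 was highest in 14 of 22, again with 5 of the 10 genes above, and among the others *Itgax* (CD11c), 1.94-fold above the next library, and *Ptprc* (CD45), 1.10-fold above it. *Marchf1*, a ubiquitin ligase that removes class II from the surface, had 23 counts in C1 and between 1 and 3 in the other 7 libraries, and was named after its values were seen. C1 was the highest library in 1 of 14 genes of the class I pathway list, in 0 of 11 dendritic epidermal T cell markers and in 3 of 6 melanocyte markers (*Dct*, *Pmel* and *Mlana*). The 11 T cell markers still summed to more in C1, at 64.05 CPM, than in the other controls, at 26.8 to 42.2 CPM. Only RoraEKO C3 was above C1 in this sum, at 88.8 CPM. Markers of conventional dendritic cells were near absent. The sum of their 8 markers was 0.852 CPM in C1 and between 0.206 and 0.761 CPM in the other libraries, and *Xcr1*, *Clec9a*, *Zbtb46*, *Cd209a* and *Clec10a* did not exceed 3 counts in any library. In C1 the 8 hair follicle keratinocyte markers summed to 3602 CPM, the lowest of the 8 libraries after control C6 at 3410 CPM, while the other 6 ran from 5955 to 20670 CPM. *Krt71* gave 2512 CPM of the sum in C1, whereas *Lrig1*, of the same list, was highest in C1, at 21.1 CPM. The part of these differences in the class II levels was not tested. Control C6, the other library with *Xist*, lay within the range of the 6 libraries without it for the 3 class II chains, was the lowest of the 8 for *Cd74* and the next highest after C1 for *Ciita*.

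**Figure D3:**
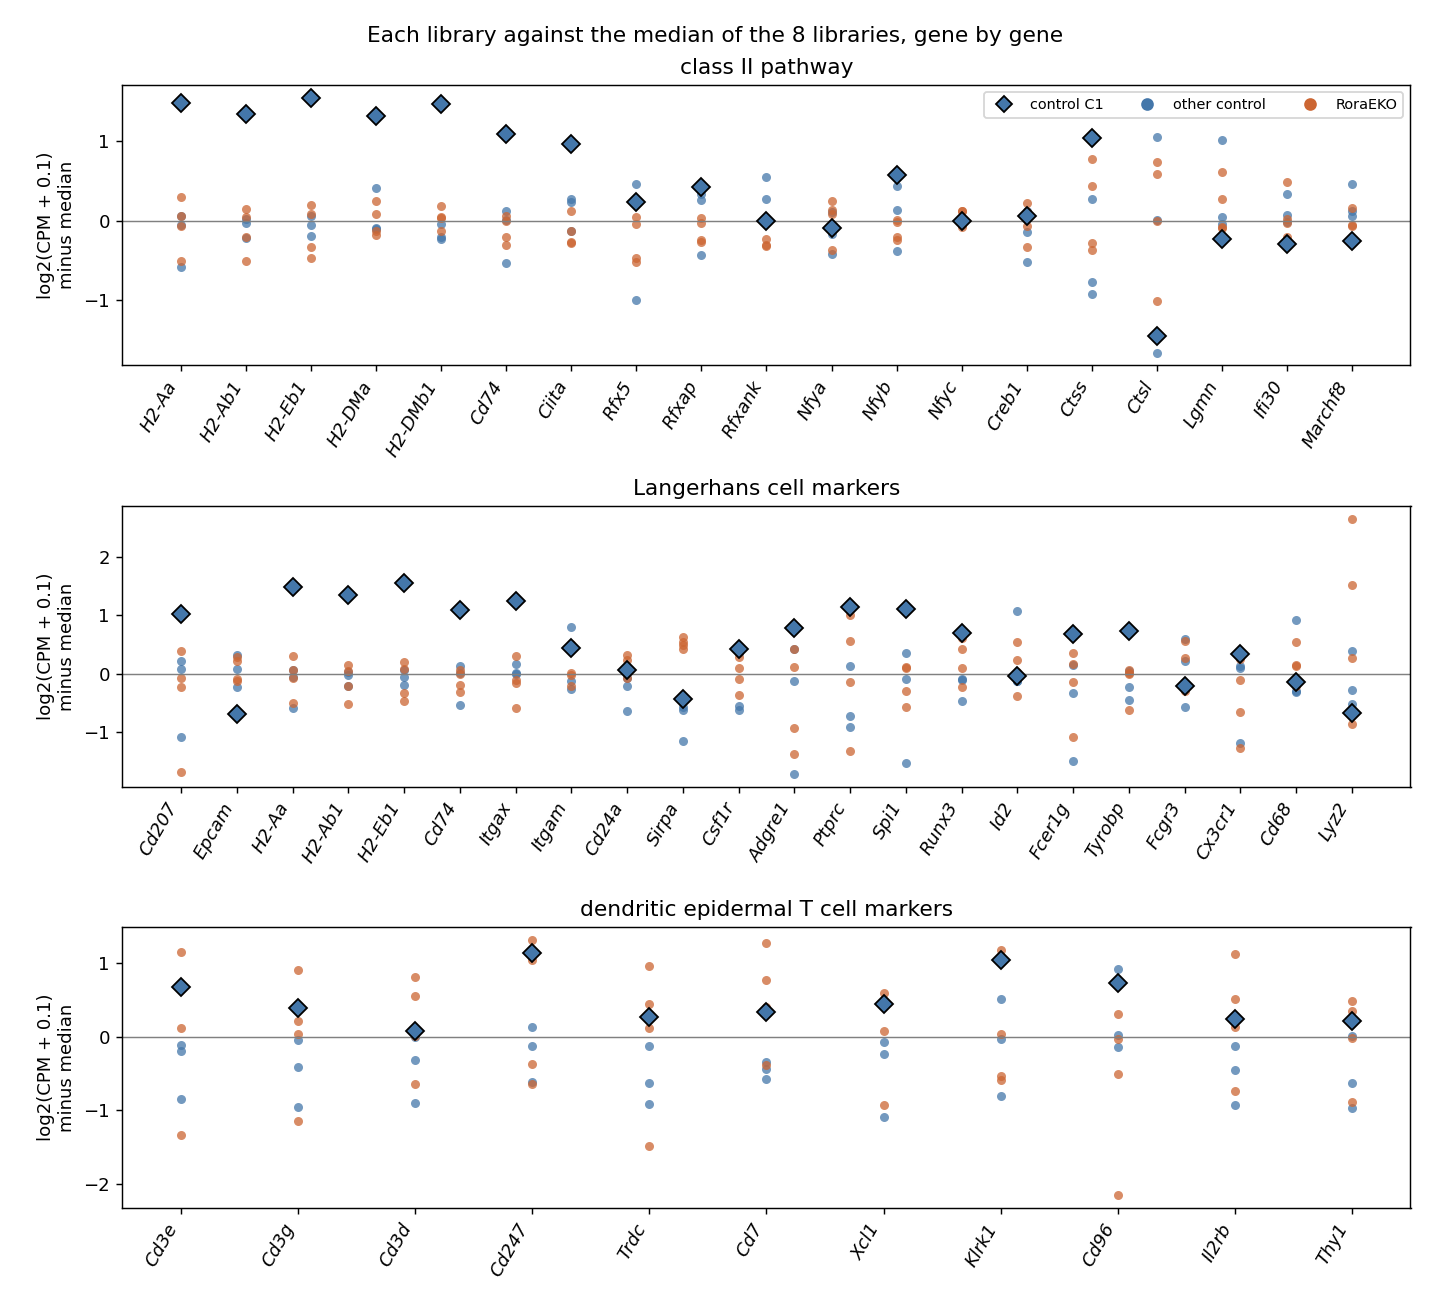
log2(CPM + 0.1) of each library minus the median of the 8 libraries, for each tested gene of the class II pathway, Langerhans cell and dendritic epidermal T cell lists, with control C1 as a diamond, other controls in blue and RoraEKO in orange. C1 lies above the other libraries in 10 of 19, 14 of 22 and 0 of 11 genes of the lists.

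The wider class II pathway was described by a list of 25 genes, the class II members included. Of the 19 tested, 0 passed the cutoffs in either direction, 13 had a log2 fold change below 0 and 6 above, and the median was -0.31. Without C1 the list, then with 20 genes tested, had 11 below 0 and 9 above and a median of -0.04. At an unadjusted p under 0.05 there was 1 gene of the list, *Rfxank*, beside 2390 of all genes tested, and limma and DESeq2 also called 0 of the list. *H2-DMa* was at 3.96, 2.73, 7.53 and 2.78 CPM in control A1, B1, C1 and C6, and at 3.52, 2.59, 2.70 and 3.15 CPM in RoraEKO A3, B4, C2 and C3 (log2 fold change -0.51; edgeR quasi-likelihood test, adjusted p = 0.500; -0.08 without C1). *H2-DMb1* was at 1.98, 2.02, 6.68 and 2.29 CPM in the controls and between 2.15 and 2.68 CPM in RoraEKO (log2 fold change -0.42; edgeR quasi-likelihood test, adjusted p = 0.679), and the sign turned without C1, to 0.20. As for the class II chains, C1 was high and the other 7 libraries lay close together.

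Several class II genes were hardly seen. *H2-Ea*, the α chain partner of *H2-Eb1*, and *H2-Eb2* had 0 counts in every library, which allows up to 0.196 CPM in the shallowest. Whether these mice carry an intact *H2-Ea* was not tested, so its 0 counts need not reflect regulation in these cells. *H2-Ob* had at most 1 count, *H2-Oa* at most 4 counts and *H2-DMb2* between 7 and 14 counts, and these 3 were not tested. Among the transcription factors of the X box, *Rfxank* was at 13.2 ± 2.499 CPM in control and 9.80 ± 1.202 CPM in RoraEKO (SD, n = 4 per genotype), with a log2 fold change of -0.43 (edgeR quasi-likelihood test, adjusted p = 0.193), *Rfxap* at 7.69 ± 1.85 and 6.20 ± 0.646 CPM (-0.31, adjusted p = 0.503), and *Rfx5* at 4.13 ± 1.54 and 3.34 ± 0.680 CPM (-0.30, adjusted p = 0.709, edgeR quasi-likelihood test for all 3). *Ctsl*, a cathepsin that also degrades the invariant chain, was at 637 ± 555 and 794 ± 362 CPM (SD, n = 4 per genotype), and *Ifi30*, a thiol reductase of the endosome, was at 203 ± 36.4 and 210 ± 45.0 CPM.

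MHC class I, which all nucleated cells carry, was set beside class II with a list of 14 genes. Of these, 0 were called higher and 2 lower, beside 2.3% and 3.22% of all genes tested, and the median log2 fold change was -0.15. *Nlrc5*, the coactivator of class I genes and a relative of *Ciita*, was at 6.28, 11.2, 8.33 and 23.9 CPM in control A1, B1, C1 and C6 and at 1.30, 0.822, 2.80 and 3.89 CPM in RoraEKO A3, B4, C2 and C3, with no overlap. It fell by 2.49 on the log2 scale (SE 0.635, adjusted p = 0.0271, edgeR quasi-likelihood test). *B2m*, the shared light chain of class I molecules, fell from 58.0 ± 11.99 to 34.1 ± 5.56 CPM (SD, n = 4 per genotype), with a log2 fold change of -0.77 (edgeR quasi-likelihood test, adjusted p = 0.0352). *Nlrc5* lost its call without RoraEKO A3, B4 or C2 or control B1 or C6, at adjusted p between 0.0584 and 0.0715, and *B2m* without any of these or RoraEKO C3, between 0.0566 and 0.111. Both also lost it with *Xist* as a covariate, at 0.117 and 0.1, and without the libraries with *Xist*, at 0.128 and 0.0764. The log2 fold changes were -1.92 and -1.94 for *Nlrc5* and -0.78 and -0.75 for *B2m* in these fits, and ran from -2.92 to -1.93 and from -0.89 to -0.63 when 1 library was left out. *H2-K1* was at 57.8 ± 12.1 and 42.4 ± 6.72 CPM with no overlap between genotypes but an adjusted p of 0.211, and *H2-D1* at 92.6 ± 10.5 and 67.2 ± 11.8 CPM (SD, n = 4 per genotype; adjusted p = 0.113, edgeR quasi-likelihood test). *H2-D1* passed without RoraEKO B4, at 0.0402. *Nlrc5* and *Ciita* were not tested against each other for a difference in fold change.

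Among Langerhans cell markers, 22 of the 30 listed were tested, and 1 was called, *Sirpa*, an inhibitory receptor of myeloid cells, where 5.51% of all genes tested were called, a share near that of the list. *Sirpa* was at 24.5, 23.6, 26.9 and 16.2 CPM in control A1, B1, C1 and C6 and at 53.0, 49.1, 56.4 and 51.2 CPM in RoraEKO A3, B4, C2 and C3. It rose by a log2 fold change of 1.202 (SE 0.165, adjusted p = 0.00225, edgeR quasi-likelihood test), and it passed in all 19 alternative fits. In C1, where the class II genes were highest, *Sirpa* was below every RoraEKO library. The cells that gave the *Sirpa* reads cannot be told from bulk counts, so its rise is not read as one of Langerhans cells. The median log2 fold change of the list was -0.17, with 13 below 0 and 9 above, and without C1 it was 0.0033, with 10 below 0 and 12 above. *Cd24a*, a gene that keratinocytes also express, was at 487 ± 96.6 and 615 ± 72.1 CPM (SD, n = 4 per genotype; adjusted p = 0.379). *Ccr6*, *Ccr7* and *Flt3* did not exceed 3 counts in any library. The tissue label was checked on keratins. *Krt1* and *Krt10*, of the spinous layer, were at 29970 ± 8117 and 23900 ± 4631 CPM in control and 48570 ± 3699 and 37710 ± 5663 CPM in RoraEKO (SD, n = 4 per genotype; adjusted p = 0.287 and 0.274, edgeR quasi-likelihood test). The basal keratins were far lower, *Krt14* at 132 ± 60.9 and 287 ± 282 CPM and *Krt5* at 172 ± 79.6 and 148 ± 149 CPM, and *Krt71*, of the hair follicle's inner root sheath, was at 7934 ± 7446 and 8144 ± 4005 CPM (SD, n = 4 per genotype). The 6 dermal fibroblast markers summed to at most 10.4 CPM in any library.

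Costimulatory and niche genes were listed because they act on or from Langerhans cells. Of 10 costimulatory genes 4 were tested, and *Icosl*, the ligand of ICOS on T cells, was called higher, beside 2.3% of all genes tested. It was at 1.03, 0.383, 0.521 and 0.3003 CPM in control A1, B1, C1 and C6 and at 2.15, 3.74, 2.22 and 1.80 CPM in RoraEKO A3, B4, C2 and C3. It rose by a log2 fold change of 2.13 (SE 0.396, adjusted p = 0.0179, edgeR quasi-likelihood test), and the call was lost without control B1 (adjusted p = 0.0671) or C1 (0.0566), with *Xist* as a covariate (0.116) and without the libraries with *Xist* (0.132), at log2 fold changes between 1.73 and 2.10 in these 4 fits. *Cd274*, the ligand PD-L1, was at 0.835 ± 0.163 and 1.24 ± 0.590 CPM (SD, n = 4 per genotype; adjusted p = 0.518), and *Cd80*, the sister ligand of *Cd86*, had at most 8 counts and was not tested.

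Of 14 niche genes tested, 3 were called, each higher in RoraEKO, where 2.3% of all genes tested were. *Tgfbr2*, a receptor chain for TGFβ, which Langerhans cells need, rose from 17.3 ± 4.57 to 45.2 ± 8.61 CPM (SD, n = 4 per genotype), with a log2 fold change of 1.39 (edgeR quasi-likelihood test, adjusted p = 0.00636), and *Axl*, a receptor kinase for dying cells, from 5.62 ± 0.663 to 13.5 ± 6.23 CPM (1.27, adjusted p = 0.0269, edgeR quasi-likelihood test for both). *Axl* lost its call without control B1, C1 or C6, at adjusted p between 0.0565 and 0.0832, with *Xist* as a covariate (0.116) and without the libraries with *Xist* (0.139), at log2 fold changes between 1.23 and 1.35 in these 5 fits, whereas *Tgfbr2* kept it in all 19 alternative fits. *Tslp*, a keratinocyte cytokine that acts on dendritic cells, had 0 or 1 counts in each control and between 16 and 34 counts in RoraEKO. *Il34*, the keratinocyte ligand of CSF1R on which Langerhans cells depend, was at 57.0, 90.4, 64.9 and 78.6 CPM in control A1, B1, C1 and C6 and at 51.9, 46.5, 53.1 and 48.2 CPM in RoraEKO A3, B4, C2 and C3. Its genotypes did not overlap, but with a log2 fold change of -0.54 it missed the threshold (SE 0.153, adjusted p = 0.0691, edgeR quasi-likelihood test), and it passed without control A1, at 0.0193. *Csf1r*, the receptor, was at 5.01 ± 1.92 and 5.07 ± 0.980 CPM (SD, n = 4 per genotype; adjusted p = 0.991). *Cdh1*, by which Langerhans cells adhere to keratinocytes, was at 436 ± 57.1 and 352 ± 18.5 CPM with genotypes that did not overlap (adjusted p = 0.271). Keratinocytes also express several of these genes, and the cells that gave the reads cannot be told from bulk counts.

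Interferon γ, the main inducer of *Ciita* outside dendritic cells, was represented by at most 1 count of *Ifng* in any library. Of the 7 tested genes of its axis, 0 passed the cutoffs, and *Jak1* and *Ifngr2* were at 72.9 ± 18.3 and 78.9 ± 4.62 CPM and at 26.0 ± 0.877 and 28.2 ± 3.19 CPM (SD, n = 4 per genotype).

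Cell types that can share these genes were counted in the same way, and no gene of their lists was called, beside 5.51% of all genes tested. This held for 11 tested dendritic epidermal T cell, 5 macrophage and monocyte, 1 B cell, 1 mast cell, 2 neutrophil, 8 hair follicle, 8 interfollicular, 3 fibroblast, 6 melanocyte and 5 erythroid genes, while 0 conventional dendritic cell and 0 endothelial genes reached testing. The summed T cell markers ran from 26.8 to 64.0 CPM in control, with C1 the highest, and from 23.1 to 88.8 CPM in RoraEKO. The macrophage and monocyte markers ran from 2.24 to 14.3 CPM in control and from 3.20 to 9.59 CPM in RoraEKO. The B cell list, whose cells also carry class II, summed to between 1.61 and 3.90 CPM over all libraries, and *Ms4a1* and *Pax5* did not exceed 3 counts in any. The 8 interfollicular keratinocyte markers summed to between 37430 and 63930 CPM in control and between 78840 and 99770 CPM in RoraEKO, without overlap, a sum made up mostly of *Krt1* and *Krt10*. The median log2 fold change of the 8 was -0.24, with 5 below 0 and 3 above, and of the genes whose genotypes did not overlap *Krt1* and *Krt10* were higher in RoraEKO and *Krt15* lower (log2 fold change -0.57). The melanocyte list had a median log2 fold change of -0.82, with 5 of 6 genes below 0 and 3 of 6 at an unadjusted p under 0.05, beside 2390 of 13147 genes tested. Erythroid genes ran from 47.8 to 334.0 CPM in control, with C1 the lowest, and from 125 to 1041 CPM in RoraEKO. Their median log2 fold change was 1.94, with 5 of 5 above 0 and 4 of 5 at an unadjusted p under 0.05, beside the same 2390 of 13147. The part of these differences in the levels of the 10 genes was not tested.

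The level of class II per Langerhans cell marker was compared as a log2 ratio, in which a scaling factor between libraries largely cancels. The mean of the 4 class II genes minus *Cd207* was 4.18, 3.11, 3.62 and 2.98 in control A1, B1, C1 and C6 and 4.57, 2.72, 3.51 and 3.52 in RoraEKO A3, B4, C2 and C3, a difference of 0.10 (SE 0.468), which was -0.23 without RoraEKO A3 and 0.39 without RoraEKO B4. C1 lay inside the range of the other libraries. *Ciita* minus the class II mean differed by -0.12 (SE 0.240), which was -0.28 without control C1 and 0.02 without control C6. The class II mean minus *Ptprc* ran from 2.20 to 3.34 in control and from 1.71 to 3.71 in RoraEKO. *Epcam* minus *Cd207* ran from 4.99 in C1 to 8.14 in A1 among controls and from 6.20 in B4 to 8.33 in A3 in RoraEKO, a difference of 0.66 (SE 0.783, exact permutation p = 0.40 two-sided, adjusted 0.75 over 5 ratios), which was 0.15 without control C1 and 1.2 without control A1. *Cd207* minus *Ptprc* differed by -0.58 (SE 0.783, exact permutation p = 0.514, adjusted 0.75), and from -1.30 without RoraEKO B4 to -0.20 without RoraEKO A3. The smallest p that 4 against 4 libraries allow is 0.0286.

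Relations between genes were examined across the 8 libraries, 17 in all, on log2 CPM with permutation p-values adjusted over the 17. *H2-Ab1* and *H2-Eb1* gave Pearson's r = 0.96 (exact permutation p = 0.00508, adjusted 0.0432) and Spearman's rho = 0.83 (p = 0.0154, adjusted 0.0654). Without C1 and A3, the libraries farthest from the median, r was 0.70, and without C1 alone it was 0.72. *H2-Aa* and *H2-Eb1* gave r = 0.94 (exact permutation p = 0.00819, adjusted 0.0449) and rho = 0.88 (p = 0.00724, adjusted 0.0410), and r = 0.72 without C1 and A1 and 0.65 without C1 alone. *H2-Eb1* and *Cd74*, with r = 0.83 (exact permutation p = 0.0604, adjusted 0.110) and rho = 0.29 (p = 0.501, adjusted 0.532), gave r = 0.01 without C1, so that relation rested on C1. The other class II pairs also fell without C1, from r = 0.83 to 0.17 for *H2-Aa* and *Cd74*, and from 0.91 to 0.49 for *H2-Ab1* and *Cd74*. For *H2-Aa* and *H2-Ab1* r fell from 0.92 to 0.54. The mean of the 4 class II genes and *Cd207* gave r = 0.70, 0.63 without C1 and 0.19 without C1 and A3, with no p because the mean is taken over members. With *Ciita* the same mean gave r = 0.82, and 0.08 without C1, also with no p. *Mfge8* went with *Krt71*, a keratin of the hair follicle's inner root sheath, at r = 0.91 (exact permutation p = 0.00127, adjusted 0.0215) and rho = 0.90 (p = 0.00456, adjusted 0.0388), and r = 0.81 without C6 and A1. *Cd52* went with the mean of 5 T cell receptor complex genes (*Cd3e*, *Cd3g*, *Cd3d*, *Cd247* and *Trdc*), at r = 0.84 (exact permutation p = 0.0106, adjusted 0.0449) and rho = 0.90 (p = 0.00456, adjusted 0.0388), and r = 0.58 with rho = 0.83 without B1 and B4. With all 11 tested T cell markers in the mean, added after seeing the data, r was 0.84 and 0.57 without B1 and B4. *Mfge8* and *Krt71* both differed between letters, and *Cd52* and the T cell mean were both lowest in the B library of each genotype. Centred on the mean of each title letter, the values gave r = 0.65 for *Mfge8* and *Krt71* and r = 0.53 for *Cd52* and the mean of the 5 T cell genes, lower than the pooled values and with no p (8 libraries, 3 letters, added after seeing the data).

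**Figure D4:**
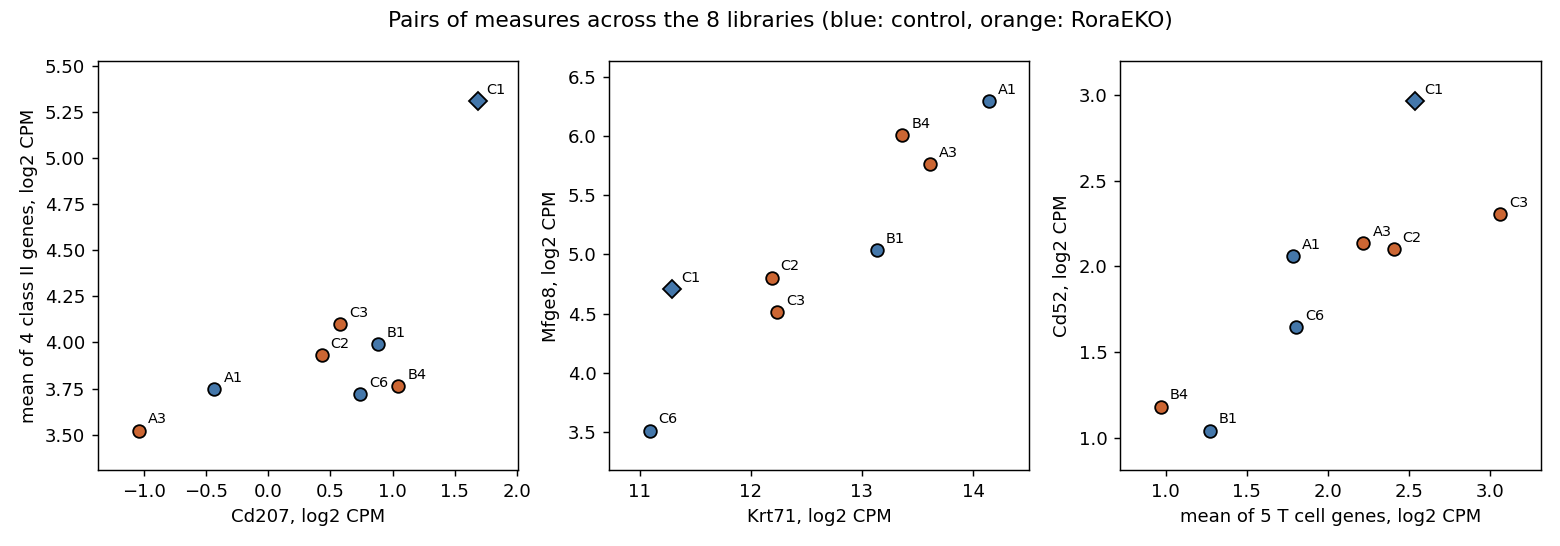
Pairs of measures across the 8 libraries on log2 CPM axes, with the mean of *H2-Aa*, *H2-Ab1*, *H2-Eb1* and *Cd74* against *Cd207* on the left, *Mfge8* against *Krt71* in the middle and *Cd52* against the mean of 5 T cell receptor complex genes on the right. On the left, C1 is highest on both axes and A3 lowest on both, and r is 0.70; in the middle, Pearson's r is 0.91, and on the right it is 0.84.

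Among the tested genes outside the 10 whose log2 CPM went closest with the mean of the 4 class II genes were *Sub1* (r = 0.96), *Cks2* (0.94), *Wdr5* (0.93) and *Hvcn1* (0.93), over 8 libraries and with no p. Those closest to *Cd207* were *Pcdhga4* (0.99), *Fam98a* (0.96), *Plxnc1* (0.95), a gene without a symbol, ENSMUSG00000116207 (0.95), and *Orc2* (0.94). For *Ciita* they were *Dnajc11* (0.94), *Atp23* (0.93), *Ociad1* (0.92), *Ehbp1l1* (0.92) and *Dnal1* (0.92). C1 was the highest library in each of these genes, as it was for the measures they were matched to. The size of its lead differed, *Sub1* reaching 65.2 CPM in C1 against a mean of 52.8 CPM while *Hvcn1* reached 1.51 CPM against a mean of 0.628 CPM.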

How the data were processed

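RNA was measured in 8 libraries, 4 control and 4 RoraEKO, mapped by the titles and genotype labels. Per the paper's methods and the submitters' processing notes, the authors made libraries with a stranded mRNA kit, converted reads with bcl2fastq 2.20.0.422, trimmed them, mapped them to GRCm39 with STAR 2.5.3a and estimated counts per gene with RSEM. The authors deposited the expected counts of 55416 Ensembl genes, not normalized. The annotation release and strand setting are not given in the sources used here. Here the expected counts were rounded, 54749 identifiers were found in GENCODE release M39, and 13147 genes passed filterByExpr. They were scaled by TMM and tested with the quasi-likelihood test (legacy form) in edgeR 4.0.16 (R 4.3.3) with genotype as the sole term, at a fold change of 1.5 and a Benjamini-Hochberg adjusted p of 0.05. Each SE was computed from log2 CPM (prior count 2) as the error of the genotype means' difference. Confidence intervals of 95% come from limma 3.58.1, added after seeing the data. Correlations and ratios used exact permutation tests, and no p is given for means over members. The members and lists were chosen with earlier results of these data known.

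Named genes were the members, genes overlapping them, nonclassical class II genes, called genes and the 2 most abundant of each list, and the 5 genes most like the class II mean, *Cd207* and *Ciita*. Some are left out of the text, and 1 gene that the rule gives is not reported here. Alternatives were RLE factors, library size alone, DESeq2 1.42.0, the non-legacy and robust forms, other filters and cutoffs, title letter as a block, *Xist* as a covariate, and leaving out libraries. Scripts were tested on simulated data. Plots used matplotlib 3.10.9. The libraries share title letters but no replicate numbers across genotypes. No 2 libraries of the same genotype were duplicates by a chi-square comparison of their counts, and pairs across genotypes were not compared.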

Additional observations from a re-analysis of the deposited data

Results flagged for a closer look

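Among the 48 groups of 4 libraries examined (24 genes of the set and of the class II pathway list, in each genotype), 4 held a library whose gap to the nearest other exceeded Dixon's 95% critical value for 4 samples, and chance flags about 1 in 20 groups. *H2-Ab1* was at 38.2 CPM in control C1 and between 12.8 and 15.2 CPM in the other 3 controls. *H2-Eb1* was at 21.9 CPM in the same library and between 6.47 and 7.71 CPM in the others. *H2-DMb1* was at 6.68 CPM in C1 and between 1.98 and 2.29 CPM in the others. *Lgmn*, an endosomal protease, was at 27.7 CPM in control A1 and between 11.6 and 14.0 CPM in the other controls.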

How the results depend on the processing

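The count of members past the cutoffs was 0, that of class II pathway genes 0 and that of Langerhans cell markers 1 under every alternative that was run. Over all genes, the 725 calls became 1188 at an adjusted p of 0.1 with no minimum fold change, 472 with *Xist* as a covariate, 314 without the libraries with *Xist*, and between 457 and 896 when 1 library was left out, lowest without control B1. Uncalled log2 fold changes of members turned sign as follows, and the cause was not tested. With *Xist* as a covariate, *H2-Aa* was at 0.24, *Cd207* at 0.15, *Cd52* at 0.33 and *Mfge8* at -0.45. Without the libraries with *Xist*, *H2-Aa* was at 0.26, *H2-Eb1* at 0.0098, *Cd207* at 0.16, *Cd52* at 0.40 and *Mfge8* at -0.34. With limma, *Cd52* was at 0.0022. When 1 library was left out, *H2-Aa* ran from -0.71 to 0.15, *Cd74* from -0.58 to 0.0042, *Cd52* from -0.35 to 0.35 and *Mfge8* from -0.0921 to 0.86. Among the 5 log2 ratios, leaving out 1 library moved *Cd207* minus *Ptprc* the most, from -0.58 to -1.30 without RoraEKO B4. The title letter as a block gave 999 calls over all genes and none among the members. *Cd86* was at 3.12 with *Xist* as a covariate and at 3.22 without the libraries with *Xist*, but at 0.37 without control B1 and 0.42 without control A1. Counts per library were lowest for *Cd86*, *Ciita* and *Cd207*, from 0 to 66, and whether depth set their errors was not tested.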
